A study of Mus musculus with 10 samples.

Results

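The regions described here are the accessible regions of a 3 Mb stretch of mouse chromosome 4 (chr4:145000001-148000000 in mm10) that holds a cluster of zinc finger genes. All rows of the deposited peak lists in these bounds were taken, and rows that touched or overlapped within a list were merged into regions. This gave 231 regions (from 454 rows) of 117284 in the aged list and 138 regions (from 264 rows) of 131656 in the young list. The stretch was selected on the density and the list-only share of these same regions, so its density, folds and list-only regions are a description and were not tested. The lists come from ATAC-seq, in which a transposase cuts open chromatin, of muscle stem cells sorted from C57BL/6 mice as α7-integrin+ CD34+ cells and cultured for 2 h with prostaglandin E2 (PGE2), a lipid signal. The aged group, of mice aged 20 to 25 months, has 3 libraries treated with PGE2, and the young group, of mice aged 8 to 20 weeks, has 2. Each age has 1 list, the sources used here do not name the libraries behind it or their depth, and lists of vehicle-treated cells were not analysed here. A difference between the lists therefore has no replicate error, and age, the response to PGE2 at each age and depth cannot be told apart.

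Zinc finger proteins of the KRAB class bind DNA through tandem fingers and recruit the corepressor TRIM28, which brings silencing chromatin marks, and many of them bind transposable elements. Their genes arose by repeated tandem duplication, so that a cluster holds many similar genes and pseudogenes. In mouse embryonic stem cells the cluster on distal chromosome 4 is known for the silencing of retrotransposons. The RefSeq gene table of GRCm38.p6, the build of the lists, places 92 genes in the stretch, of which 56 are pseudogenes, 8 are long noncoding RNA genes and 28 are protein-coding. By gene symbol (Zfp, Zkscan, Zscan, Zik, Rex2, Rsl or Znf), the protein-coding genes are 17 zinc finger genes and 11 others. The zinc finger genes run from Zfp990 to Zfp933 (chr4:145510759-147849126, 2.34 Mb). The lower edge holds Vps13d, Tnfrsf1b, Tnfrsf8 and Gm42346, and the upper edge holds Miip, Fv1, Mfn2, Plod1, 2510039O18Rik and Nppb. Gm13212 is the remaining one and lies between the zinc finger genes. It was counted with the others because the class was set by symbol alone.

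The promoters of several of these genes are near copies of each other, and 6 are shown because they span the range from a unique promoter with an open region to copied ones without. Each runs 5′ to 3′ on the strand of its gene, from 250 bases before the start site to 50 after it, as RefSeq gives it for GRCm38.p6. Capitals mark bases inside a 30-base word that also occurs, on either strand, in the promoter of another gene more than 10 kb away. The 6 genes were chosen after the values were seen. Start sites with few shared words and no region, such as the second start site of Zfp600, are not among the sequences shown. Zfp933 (chr4:147848369-147848668, minus strand) and Zfp982 (chr4:147442864-147443163, plus strand) had open starts in both lists. Zfp988 (chr4:147305354-147305653, plus strand) had a weak region in both lists. Zfp600 (chr4:146156577-146156876, plus strand), Rex2 (chr4:147021600-147021899, plus strand) and Zfp979 (chr4:147642459-147642758, minus strand) had none.
Zfp933: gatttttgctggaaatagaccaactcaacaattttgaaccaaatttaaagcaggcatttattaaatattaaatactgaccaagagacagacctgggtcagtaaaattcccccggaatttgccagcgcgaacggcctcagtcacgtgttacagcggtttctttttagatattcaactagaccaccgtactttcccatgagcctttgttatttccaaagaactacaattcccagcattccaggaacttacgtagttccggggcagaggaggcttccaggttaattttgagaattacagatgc
Zfp982: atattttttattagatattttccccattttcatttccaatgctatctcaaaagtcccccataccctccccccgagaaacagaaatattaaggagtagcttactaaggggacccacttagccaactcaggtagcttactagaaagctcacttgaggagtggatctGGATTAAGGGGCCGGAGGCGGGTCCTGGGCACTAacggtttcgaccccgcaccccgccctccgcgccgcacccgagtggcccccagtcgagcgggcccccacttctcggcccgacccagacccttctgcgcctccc
Zfp988: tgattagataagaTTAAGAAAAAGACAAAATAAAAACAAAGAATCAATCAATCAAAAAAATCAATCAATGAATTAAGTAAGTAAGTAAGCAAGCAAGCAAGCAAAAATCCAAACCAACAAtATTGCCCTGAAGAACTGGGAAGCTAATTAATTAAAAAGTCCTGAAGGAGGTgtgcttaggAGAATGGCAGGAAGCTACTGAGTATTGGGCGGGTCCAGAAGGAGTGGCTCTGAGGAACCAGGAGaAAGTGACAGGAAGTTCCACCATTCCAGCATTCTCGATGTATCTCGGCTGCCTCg
Zfp600: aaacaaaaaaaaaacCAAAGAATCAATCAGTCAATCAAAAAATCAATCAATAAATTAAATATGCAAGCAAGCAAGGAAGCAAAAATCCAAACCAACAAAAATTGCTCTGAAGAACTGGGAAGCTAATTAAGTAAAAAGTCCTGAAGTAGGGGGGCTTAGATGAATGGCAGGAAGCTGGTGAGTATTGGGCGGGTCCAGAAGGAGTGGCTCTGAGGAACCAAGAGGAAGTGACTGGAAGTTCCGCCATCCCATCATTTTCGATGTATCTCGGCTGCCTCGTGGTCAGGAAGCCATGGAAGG
Rex2: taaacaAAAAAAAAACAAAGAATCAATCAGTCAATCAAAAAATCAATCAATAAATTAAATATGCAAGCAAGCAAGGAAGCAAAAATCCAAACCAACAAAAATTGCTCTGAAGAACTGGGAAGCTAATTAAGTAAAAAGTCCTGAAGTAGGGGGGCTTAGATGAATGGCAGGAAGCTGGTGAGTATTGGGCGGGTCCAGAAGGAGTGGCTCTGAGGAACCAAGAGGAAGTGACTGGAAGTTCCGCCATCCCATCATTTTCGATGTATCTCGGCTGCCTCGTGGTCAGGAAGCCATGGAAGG
Zfp979: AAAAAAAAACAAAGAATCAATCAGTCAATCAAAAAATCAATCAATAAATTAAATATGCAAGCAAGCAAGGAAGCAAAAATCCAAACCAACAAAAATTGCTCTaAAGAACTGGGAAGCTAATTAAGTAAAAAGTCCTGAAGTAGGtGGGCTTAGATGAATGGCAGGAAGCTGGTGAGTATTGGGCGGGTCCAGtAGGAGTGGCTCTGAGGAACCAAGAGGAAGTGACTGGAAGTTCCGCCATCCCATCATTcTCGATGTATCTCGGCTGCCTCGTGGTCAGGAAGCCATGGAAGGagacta
In these windows, 0 bases are in capitals for Zfp933, 34 for Zfp982, 275 for Zfp988, 285 for Zfp600, 294 for Rex2 and 290 for Zfp979. The promoters of Zfp600 and Rex2, whose genes lie in different parts of the cluster, shared 299 identical bases of 300 (99.7%). Zfp979 shared 290 identical bases (96.7%) with Rex2, and Zfp988 shared 280 (93.3%) with Zfp534.

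Along the stretch the aged list was the denser of the lists, and most of the difference lay among the zinc finger genes. The stretch had 77 aged regions per Mb, against 82.8 in the flanks, the 3 Mb on either side (44.3 before and 121 after). It had 46 young regions per Mb, against 96.5 in the same flanks (57 before and 136 after). The density in the stretch was 0.930 times that of the flanks in the aged list and 0.477 times in the young list. Of the regions in the 9 Mb of stretch and flanks, the stretch held 31.7% (95% exact binomial interval 28.4 to 35.2) in the aged list and 19.2% (16.4 to 22.3) in the young list, for 33.3% of the length. Intervals here cover counting error over regions only, since PCR fragments are not independent molecules and neighbouring regions are not independent. Aged regions covered 4.28% of the bases of the stretch against 5.16% of the flanks, and young regions 2.71% against 7.19%.

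The share of regions without a counterpart also differed between the lists. A region was called list-only if no region of the other list overlapped it by 1 bp or more. In the stretch 133 of 231 aged regions were aged-only (57.6%, 50.9 to 64.0), against 6.24% in the flanks and 10.7% of all aged regions. Of the young regions there, 18 of 138 were young-only (13.0%, 7.92 to 19.8), against 30.1% in the flanks and 28.2% of all young regions. The rule that chose the stretch used this contrast, so nothing is read from the distance to these background shares. The stretch held 1.06% of the 12602 aged-only regions of the genome and 13.2% of the 1006 on chromosome 4. It held 0.0484% of the 37152 young-only regions of the genome and 0.737% of the 2441 on chromosome 4.

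**Figure D1:**
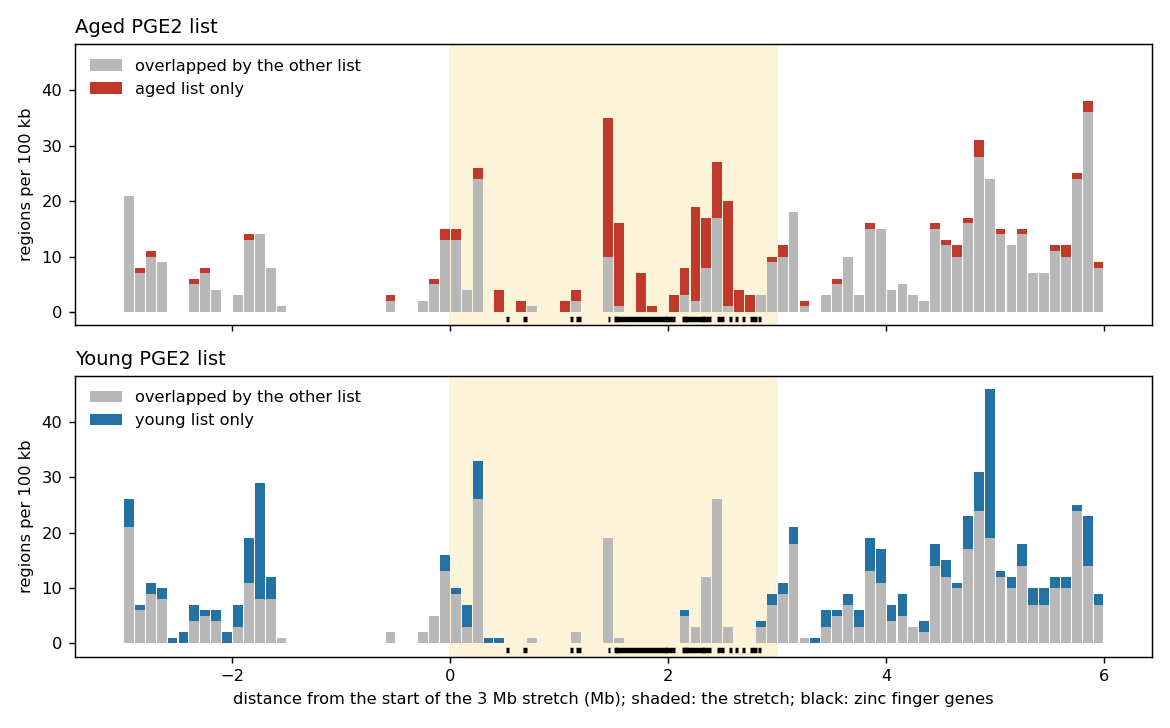
Regions per 100 kb (vertical axis) by distance from the start of the stretch in Mb (horizontal axis), in the aged list (upper) and the young list (lower); grey parts were overlapped by the other list, coloured parts were not, and black marks under the bars are zinc finger genes. Aged-only regions pile up in the shaded stretch, where 133 of 231 aged regions are aged-only, whereas young-only regions are spread over the flanks, where they make up 30.1%.

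Members next to the bounds had counterparts in both lists. Inside the lower bound the nearest was at 145002749 to 145003369 (12.8-fold) in the aged list and at 145002777 to 145003247 (12.0-fold) in the young list. Just outside it, 1 region in each list crossed the bound and was counted in the flank (36.3-fold aged and 33.1-fold young). At the upper bound the last inside was 3.22-fold in the aged list and 5.94-fold in the young list, and the first outside was 55.6-fold in the aged list and 92.2-fold in the young list. The lower bound thus cut through a region shared by both lists, and the regions on either side of the upper bound were shared as well. A fold here is the authors' value for the summit of a region over the background of their caller, and folds are set only against others of the same list.

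The stretch was not uniform. Of its 30 bins of 100 kb, 8 had no aged region and 14 had no young region. Aged-only regions occurred in 19 bins and young-only regions in 8. The 5 bins with the most aged-only regions held 86 of the 133 (64.7%). In steps of 500 kb from the lower bound, the aged list had 49, 3, 41, 24, 74 and 40 regions, of which 8, 2, 29, 23, 44 and 27 were aged-only. The young list had 52, 1, 21, 1, 47 and 16 regions in the same steps, of which 14, 0, 0, 0, 1 and 3 were young-only. The first step, before the zinc finger genes, was the one with more young than aged regions, and the step from 146.5 to 147 Mb had 24 aged regions and 1 young region.

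Among the zinc finger genes, 124 of 170 aged regions were aged-only (72.9%, 65.6 to 79.5) and 2 of 75 young regions were young-only (2.67%, 0.325 to 9.30). These 124 made up 93.2% of the aged-only regions of the stretch. Before the first zinc finger gene, 8 of 49 aged regions were aged-only (16.3%) and 14 of 52 young regions were young-only (26.9%). After the last, it was 1 of 12 aged regions and 2 of 11 young regions. The aged-only regions therefore lay inside the gene cluster, and most young-only regions lay at its lower edge. Among the zinc finger genes there were 72.7 aged and 32.1 young regions per Mb.

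The regions among the zinc finger genes were weak in either list. Their median fold was 2.67 (95% order-statistic interval 2.55 to 2.84) in the aged list, against 4.37 in the flanks and 4.32 over the aged list. In the young list it was 2.64 (2.42 to 2.86), against 4.75 in the flanks and 4.89 over the young list. Regions of 10-fold or more numbered 2 of 170 in the aged list (1.18%), against 23.9% of the aged flank regions. They numbered 3 of 75 in the young list (4%), against 27.6% of the young flank regions. At the lower edge, 14 of 49 aged and 17 of 52 young regions reached 10-fold, and the medians were 5.29 and 5.28. The cluster thus had few strong regions, while its lower edge had them in proportions near those of the flanks.

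The aged-only regions of the stretch were weak and narrow, like aged-only regions in general. Their folds ran from 1.83 to 4.47 with a median of 2.45, against a median of 2.40 for all aged-only regions. Their widths ran from 149 to 986 bp with a median of 241 bp, against 193 bp. The smallest fold in the aged list is 1.83, so the weakest lay at the caller's threshold. The 18 young-only regions had folds from 1.94 to 5.28, with a median of 2.62. Of the 124 aged-only regions among the zinc finger genes, 97 had no young region within 1 kb and 36 had none within 10 kb. Of all 12602 aged-only regions, 6731 had none within 1 kb and 2116 none within 10 kb.

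**Figure D2:**
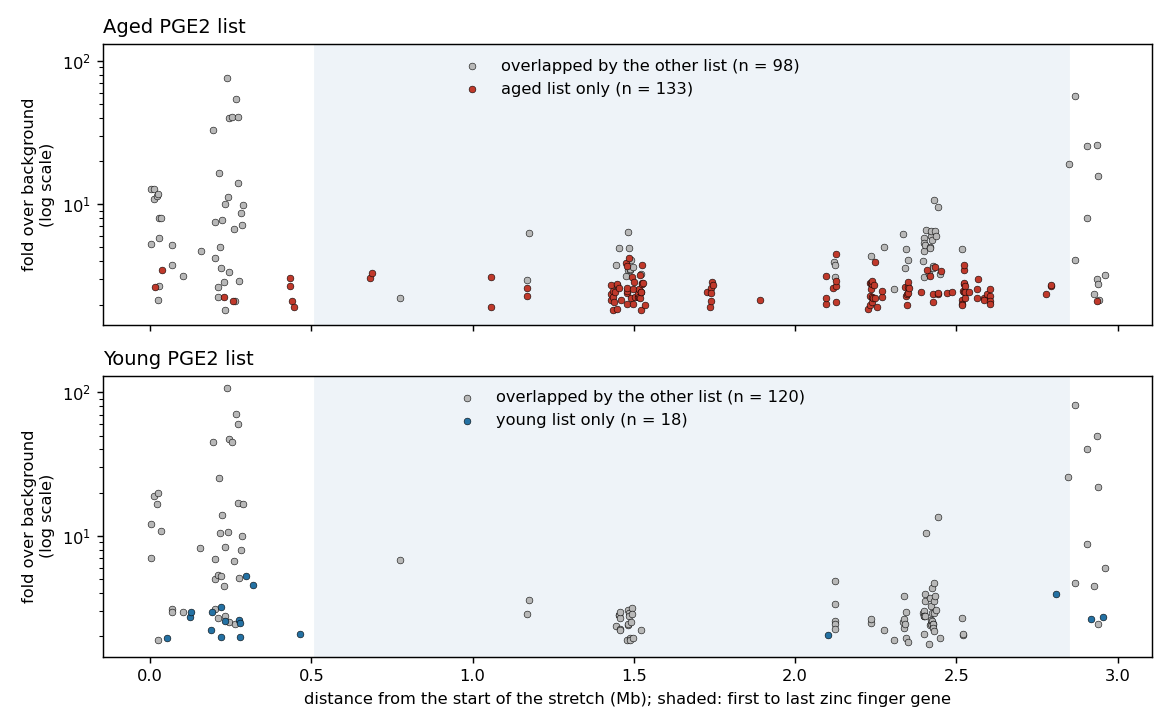
Fold over background on a log scale (vertical axis) of each region of the stretch by its distance from the start of the stretch in Mb (horizontal axis), in the aged list (upper, n = 231) and the young list (lower, n = 138); each point is a region, grey where the other list overlapped it and coloured where it did not. In the shaded span from the first to the last zinc finger gene, 2 aged and 3 young regions reach 10-fold, and the aged-only regions lie at or below 4.47-fold.

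The 5 strongest aged-only regions all lay among the zinc finger genes. The strongest was at 147127409 to 147128011 (4.47-fold) inside the span of Zfp978, and another of 3.99-fold lay in the same span at 147248737 to 147248953. A region at 146485306 to 146486006 (4.23-fold) and one at 146476048 to 146476799 (3.89-fold) lay inside the span of Vmn2r-ps16, a vomeronasal receptor pseudogene. The fifth, at 146523703 to 146524688 (3.75-fold), lay where the spans of Zfp981 and Zfp993 overlap. None of the 5 was at a gene start of the promoter table within 1 kb.

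Of the 5 strongest young-only regions, 4 lay at the lower edge. They were at 145295682 to 145295915 (5.28-fold) inside Tnfrsf8, which encodes the receptor CD30, and at 145319377 to 145319655 (4.53-fold) in no gene. One of 3.17-fold, at 145220593 to 145220943, lay inside Tnfrsf1b, which encodes TNF receptor 2. One of 2.95-fold, at 145125544 to 145125751, lay inside Vps13d, which encodes a lipid transfer protein. The remaining one, of 3.92-fold at 147809756 to 147809946, was at the start of Zfp984.

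Aged regions among the zinc finger genes came in tight groups. The median gap between neighbours there was 634 bp in the aged list, against 3377 bp in the flanks, and 675 bp in the young list, against 2623.5 bp. Between the groups were long empty spans. The longest without an aged region ran from 145774492 to 146056087 (281.6 kb). The longest without a young region ran from 146521276 to 147101888 (580.6 kb) and contained the whole span of Rex2. Such spans were not particular to the stretch. In the flank before it, no region of either list started in the 100 kb bins from 143.5 to 144.4 Mb, which is a longer span than either. The flank densities above include that empty part.

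Groups were followed as runs, defined after the values were seen as 10 or more regions of a list with gaps of at most 5 kb. Among the zinc finger genes the aged list had 6 runs of 112.8 kb in all, which is 4.82% of the length from the first to the last zinc finger gene. They held 89 of the 170 aged regions (52.4%) and 63 of the 124 aged-only ones (50.8%), together with 44 young regions. In 5 of the 6 runs 50% or more of the aged regions were aged-only. On the autosomes outside the stretch, 17 of 865 aged runs (1.97%) reached that share. Most of those runs were stronger: 73 had no region of 15-fold or more, as was the case for all 6 runs here, and 9 of the 73 reached it. In the young list the stretch had 3 runs and none reached 50% young-only, against 164 of 1083 (15.1%) outside the stretch. Among outside young runs with no region of 15-fold or more it was 14 of 53.

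The runs differed in how far the lists overlapped. The run from 146476048 to 146502222 had 21 aged regions, 13 of them aged-only, which covered 54.7% of its bases with folds from 2.02 to 6.39. The 12 young regions there covered 21.0%, with folds from 1.89 to 3.13. Right beside it, the run from 146512010 to 146528308, at the starts of Zfp993 and Zfp981, had 14 aged regions, 13 of them aged-only, that covered 33.0% of its bases, and 1 young region that covered 2.36%. Both runs thus had far more bases in aged than in young regions, but young regions were spread through the first and nearly missing from the next.

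The run from 147231937 to 147248953, inside the span of Zfp978, had 14 aged regions, 13 of them aged-only, and 2 young regions. The run from 147335056 to 147354729, in the upper part of that span, had 12 aged regions, 8 of them aged-only, and 8 young regions. The run from 147516448 to 147528807, past the end of Zfp982, had 13 aged regions, 12 of them aged-only, and 3 young regions. The run from 147416333 to 147437615, in no annotated gene, stood apart from these. It had 15 aged regions, 4 of them aged-only, with folds from 2.07 to 10.8, and 18 young regions with folds from 1.76 to 4.67. Aged regions covered 69.7% of it and young regions 39.2%.

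**Figure D3:**
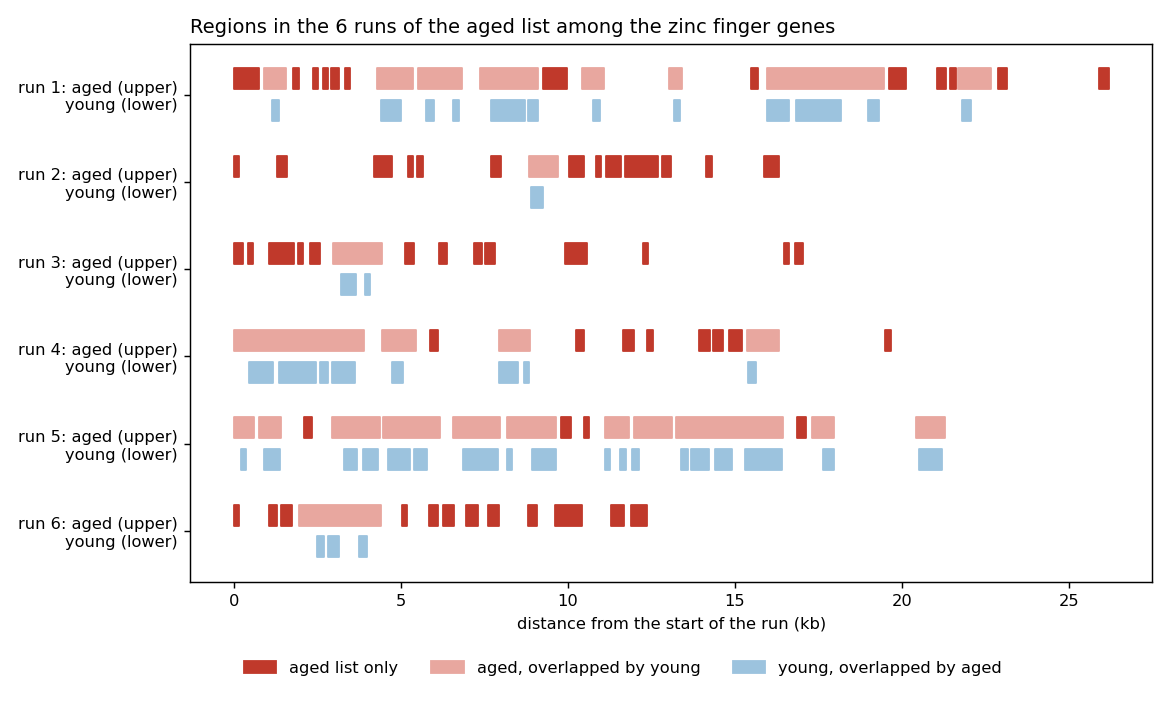
Regions of the 6 aged runs among the zinc finger genes, in order along the chromosome, by distance from the start of each run in kb (horizontal axis); for each run the aged regions are drawn above the young ones, and each bar is 1 region to scale. Runs 2, 3 and 6 have 1, 2 and 3 young regions, whereas run 5 has 18 young regions under 15 aged ones.

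Where the lists overlapped among the zinc finger genes, aged regions were wide and young ones short. Shared aged regions there had a median width of 937 bp, against 430 bp for all shared aged regions. Shared young regions had a median width of 334 bp, against 629 bp for all shared young regions. Of the 46 shared aged regions, 17 (37.0%) overlapped 2 or more young regions, against 1.67% of 104682 over the aged list. No young region among the 73 shared ones overlapped 2 or more aged regions, against 10.8% of 94504 over the young list. In this cluster one aged region thus often spanned several young ones, the opposite of the lists at large.

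The widest regions show the same. The widest aged region, at 146454017 to 146458210 inside Zfp992, measured 4194 bp, was merged from 13 rows and peaked at 4.95-fold, and 6 young regions lay in it. The next ran from 147335056 to 147338968 (3913 bp, 6.25-fold) inside Zfp978, from 146492002 to 146495512 (3511 bp, 4.08-fold) inside Vmn2r-ps16, from 147429571 to 147432754 (3184 bp, 10.8-fold) in no gene, and from 147518398 to 147520846 (2449 bp, 4.90-fold) in no gene. They met 4, 3, 4 and 3 young regions. The 5 widest young regions all lay outside the zinc finger genes. They were at Vps13d (3307 bp, 3258 bp and 1922 bp), at the shared start of Miip and Fv1 (2019 bp) and at 2510039O18Rik (1940 bp).

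By gene, 11 of the 17 zinc finger gene spans held an aged region and 9 of them an aged-only one. For the young list it was 9 spans, with 1 that held a young-only region. Spans differ widely in length and some overlap, and the same count was not made for genes elsewhere, so these counts are a description. Zfp978, whose span of 267146 bp also includes Zfp991 and Zfp988, held 38 aged regions, 30 of them aged-only, and 13 young regions. Zfp993, with a span of 478623 bp that overlaps those of Zfp981 and Rex2, held 22 aged regions, 21 of them aged-only, and 1 young region. Zfp981 held 16 aged regions, 15 of them aged-only, and the same young region. Nearly all regions of Zfp981 and Zfp993 were aged-only, and many of them are counted under both genes.

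The other spans held few regions. Zfp982 held 6 aged regions, 4 of them aged-only, and 2 young regions. Zfp600 held 4, with 2 aged-only, and 2 young regions. Zfp992 held 3, with 2 aged-only, and 6 young regions, which fell in its widest aged region. Zfp980 held 2 and Zfp985 held 3 aged regions, all aged-only, and no young region. Zfp984 held 3 aged-only regions and 1 young-only region that did not overlap them. Zfp990, Zfp987, Rex2, Zfp991, Zfp979 and Zfp534 held no region in either list. RefSeq lists Zfp979 also as Ssm1b.

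Regions lay both inside and outside the zinc finger gene spans. Of the 170 aged regions among these genes, 84 touched a zinc finger gene span, 26 touched only a pseudogene span and 60 lay in no gene. Of the 75 young regions it was 26, 14 and 35. Of the 124 aged-only regions, 69 touched a zinc finger gene span. These spans make up 52.5% of the length from the first to the last zinc finger gene. Both aged counts lie near that share and the young count below it, and nothing is read from them.

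Most zinc finger gene starts had no region in either list. A gene was counted as open if a region lay within 1 kb of a start site, or of either end of its span where the promoter table has no entry for it. Of the 17 zinc finger genes, 4 were open in both lists (Zfp933, Zfp978, Zfp982 and Zfp988), 1 in the aged list only (Zfp993), 1 in the young list only (Zfp984) and 11 in neither. Over all 21900 protein-coding genes, 63.4% were open in both lists, 0.411% in the aged list only and 2.79% in the young list only. Zinc finger genes elsewhere were open in both lists in 365 of 414 cases and in neither in 42. Of the 11 other protein-coding genes of the stretch, 7 were open in both lists and 4 in neither (Gm13212, Gm42346, Nppb and Tnfrsf8). Nppb encodes the natriuretic peptide BNP.

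Zfp933, the last zinc finger gene of the cluster, had the strongest start. Its region measured 19.1-fold at 147847934 to 147848833 in the aged list and 25.8-fold at 147847745 to 147849145 in the young list, with summits 41 and 26 bases before the start site. The first start site of Zfp982 had a region of 9.51-fold in the aged list and 13.5-fold in the young list, with summits 207 and 222 bases after it. The Zfp933 region ranked above 85.4% of aged and 87.1% of young regions, and the Zfp982 region above 73.5% of aged and 77.2% of young regions. The regions at Zfp988 were weak, at 2.55-fold in the aged list and 1.89-fold in the young list, with summits 25 and 34 bases before the start. At the lower end of the Zfp978 span lay an aged region of 3.75-fold at 147124278 to 147125249 and a young region of 4.84-fold at 147124733 to 147125334.

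The starts open in 1 list had weak regions. Zfp993 had 2 aged-only regions within 1 kb, the stronger at 2.35-fold with its summit 632 bases after the start, and no young region. Zfp984 had a young-only region of 3.92-fold with its summit 60 bases before the start, and no aged region.

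The 10 strongest regions of each list in the stretch lay at its edges, apart from that of Zfp933. The strongest lay inside Tnfrsf1b, at 145239068 to 145240375 (76.4-fold) in the aged list and 145239045 to 145240377 (107-fold) in the young list. The start of Tnfrsf1b had 40.2-fold in the aged list and 47.7-fold in the young list. Inside Tnfrsf8, near the lower end of its span, aged regions of 54.4-fold and 40.8-fold and young regions of 71.1-fold and 59.9-fold lay although the start of the gene had none. A region at Gm36233, a long noncoding RNA gene, had 40.7-fold in the aged list and 45.0-fold in the young list. At these edges the same places were open in both lists.

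The remaining strong regions were at gene starts. The start of Vps13d had 32.9-fold in the aged list and 45.4-fold in the young list. The region shared by Miip, which encodes an inhibitor of cell migration, and Fv1, a restriction factor against retroviruses, had 57.3-fold in the aged list and 81.7-fold in the young list. Mfn2, which encodes a mitochondrial fusion protein, had 25.6-fold in the aged list and 40.3-fold in the young list. Plod1, which encodes a collagen lysyl hydroxylase, had 25.7-fold in the aged list and 49.6-fold in the young list. Each of these starts was open in both lists.

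The promoter table has entries for 13 of the 17 zinc finger genes, with 16 start sites. Zfp990, Zfp992, Zfp978 and Zfp991 are the others. A region lay within 1 kb of 4 of the 16 sites in the aged list (25%), against 52.8% of all 32851 sites. It was also 4 in the young list (25%), against 55.6%. For zinc finger genes elsewhere it was 364 of 418 sites in the aged list (87.1%) and 371 in the young list (88.8%). For the other protein-coding genes of the stretch it was 10 of 14 sites in each list.

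The start sites differed in how much of their promoter is copied elsewhere. The share of 30-base words that occur at another gene more than 10 kb away was 97.8% for Rex2, 94.5% for the first site of Zfp600, 66.1% for Zfp534, 63.8% for Zfp987 and 53.5% for Zfp979. None of these 5 sites had a region in either list. It was 44.6% for Zfp988, 1.85% for the first site of Zfp982 and 0% for Zfp933, with regions in both lists. It was 0% for Zfp993, with aged regions only, and 35.4% for Zfp984, with a young region only. Gm13212, counted with the other genes by its symbol, had 38.7% and no region in either list. The 5 sites with more than 50% of words shared thus had no region, but several with few shared words, such as the second site of Zfp600 with 0%, had none either. The pattern depends on the measure: Zfp988, with 275 of 300 bases in capitals and 93.3% identity to Zfp534, had a region in both lists. Over all promoters 1459 (4.44%) had more than 50% of words shared, and of those 5.55% had an aged region and 6.44% a young region. Among zinc finger genes elsewhere, 31 sites had more than 50% shared and 48.4% of these had a region in each list. How the aligner's output was handled for reads that fit several copies is not stated in the sources used here, and its part in the empty starts or in the list-only regions was not tested.

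**Figure D4:**
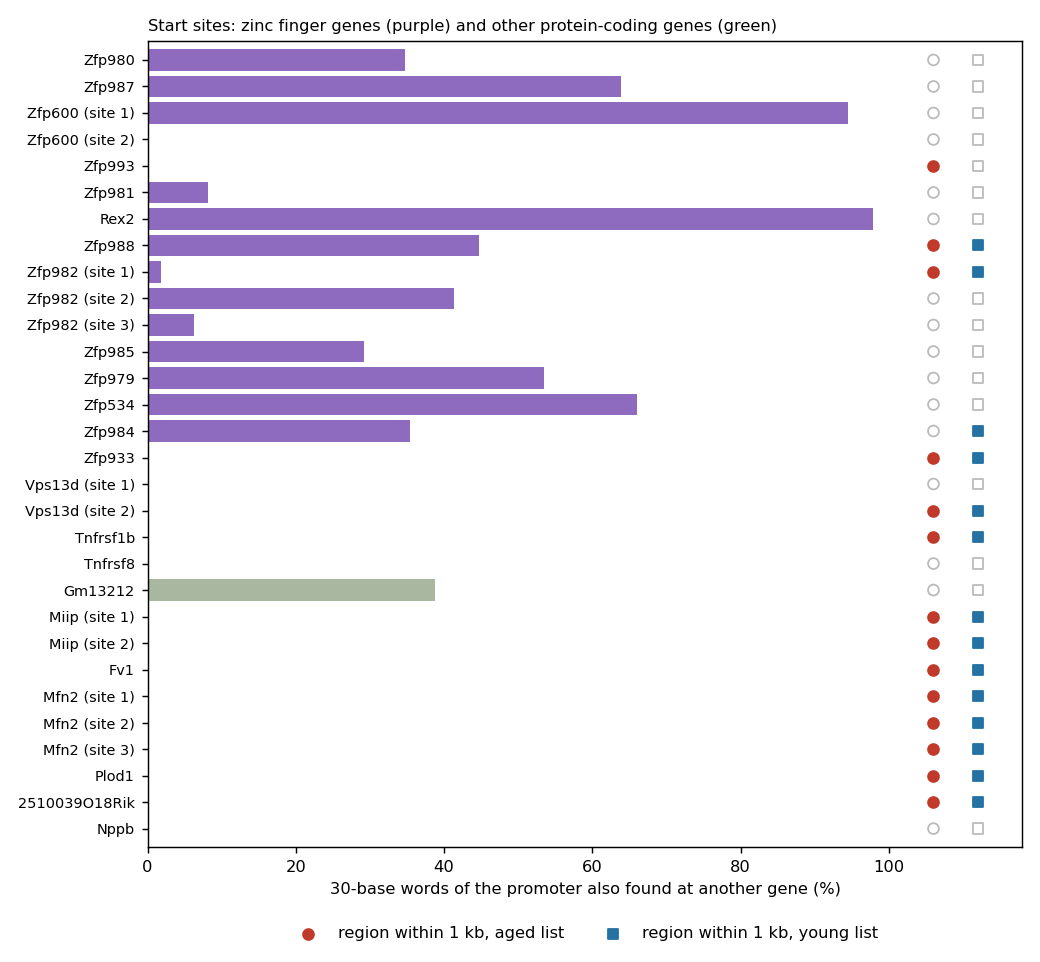
Share of 30-base words of the promoter that also occur at another gene (horizontal axis, %) for each start site of the zinc finger genes (purple, 16 sites) and the other protein-coding genes of the stretch (green, 14 sites); filled circles and squares mark sites with an aged or a young region within 1 kb, open ones sites without. The 5 zinc finger sites above 50% have no region, and 10 of the 14 other sites have one in both lists.

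Letters of the promoters differed from the table at large as well. The median GC content of the 16 windows was 42.8%, against 52.7% over all promoters. It was 59.2% at the other protein-coding sites of the stretch and 55.3% at zinc finger sites elsewhere. The median number of CpG was 4.5, against 7, 15 and 14 in these sets. On either strand, CCAAT was found in 12 of 16 (75%), against 35.7% of the other protein-coding sites of the stretch, 45.5% of zinc finger sites elsewhere and 37.4% of all. GGGCGG was found in 10 (62.5%), against 57.1%, 42.6% and 35.7% of the same sets. TATAAA was found in 1 (6.25%), against 28.6%, 7.66% and 13.6%. The share with GGGCGG was thus near that of the other protein-coding sites of the stretch, and the share with TATAAA near that of zinc finger sites elsewhere. TGACGTCA, the full cAMP response element, was in 0, against 1.79% of all promoters and 4.07% of zinc finger sites elsewhere. TGANTCA, the AP-1 site, was in 0, against 7.81% and 4.55%. At the other protein-coding sites of the stretch the shares were 0% and 14.3%. With 16 windows, a count of 0 against such shares is not read as a difference. Because 10 of the 16 windows were more than 80% identical to that of another zinc finger gene of the stretch, these counts do not come from independent sequences. A match is a string of letters and not a bound site.

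Set against other places in the genome, the stretch had the highest aged-only share of the windows examined. Windows of 3 Mb were moved along the autosomes in steps of 1 Mb, with 100 or more regions and without overlap with the stretch. Neighbouring windows overlap, so they are not independent. Of 1572 such windows in the aged list, the median aged-only share was 9.30%, the highest was 44.8% and 0 reached the 57.6% of the stretch. The highest was on chromosome 13 from 10 to 13 Mb, with 73 of 163 aged regions aged-only and no zinc finger gene. Of 1660 windows in the young list, the median young-only share was 28.0%, and 8 were at or below the 13.0% of the stretch. The ratio of aged to young regions was 1.67 in the stretch and 0.891 over the lists. In the 1660 windows with 100 or more young regions it ran from 0.567 to 1.60. Windows with fewer young regions, some with higher ratios, are not in that range. Since the stretch was picked for this contrast, its place in these ranges is a description.

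Other zinc finger clusters did not show the same shares. On a fixed grid of 3 Mb, 8 other windows held 10 or more zinc finger genes by symbol. Together 143 of their 1446 aged regions were aged-only (9.89%, 8.40 to 11.5), with a range over windows from 1.20% to 15.9%. Of their 1567 young regions 445 were young-only (28.4%, 26.2 to 30.7), from 18.9% to 35%. Their median folds ran from 3.94 to 8.94 in the aged list and from 5.46 to 7.75 in the young list, above the medians of the stretch in both. The window with the most zinc finger genes, 26 on chromosome 13 from 66 to 69 Mb, had 1 aged-only region of 83.

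**Figure D5:**
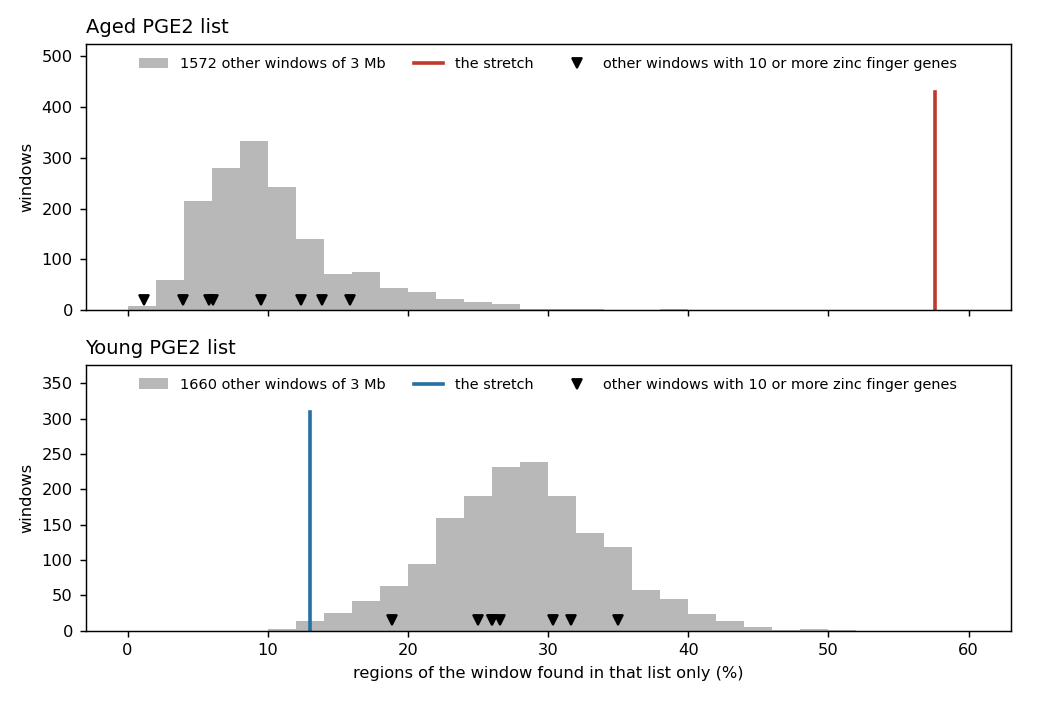
Number of 3 Mb windows (vertical axis) by the share of their regions found in 1 list only (horizontal axis, %), for the aged list (upper, 1572 windows) and the young list (lower, 1660 windows); the vertical line is the stretch and triangles are the 8 other windows with 10 or more zinc finger genes. The stretch lies at 57.6% in the aged list, beyond the highest other window at 44.8%, and at 13.0% in the young list, below the triangles.

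The labelled cell type was checked at gene starts and ends. All 7 muscle stem cell markers (Pax7, Myf5, Itga7, Cd34, Vcam1, Calcr and Sdc4) were open in both lists, as were 63.4% of all 21900 protein-coding genes. Itga7 and Cd34 encode the proteins the cells were sorted by. Of the 3 endothelial markers, Kdr was open in both lists, Cdh5 in the young list only and Pecam1 in neither. Of the 3 immune markers, Cd68 was open in both lists and Ptprc and Cd3e in neither. Of the 3 fibro-adipogenic markers, Pdgfra and Dcn were open in both lists and Ly6a in the aged list only. Whether other cells contribute to the list-only regions of the stretch was not tested.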

How the data were processed

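Per the submitters' processing notes, Bowtie2 and the build mm10 (GRCm38) were used. The authors deposited 2 narrowPeak files of MACS type, for aged and for young cells after PGE2. Not given in the sources used here are the options of the caller, duplicate filtering, the treatment of reads that fit several places, the depth and the libraries pooled for each file. The deposited fold ratio, −log10 q-value, integer score and summit offset of each peak are the authors' own. Every fold (100%) was a whole multiple of 1 step per list, with a tolerance of 0.01, as a uniform background of 19.8 (aged) and 21.7 (young) fragments gives, so no local background entered.

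Rows that touched or overlapped were merged, keeping the strongest summit. Counts have Clopper-Pearson intervals and medians order-statistic intervals, at 95%. No test was run, since each age has 1 list. Promoters, gene spans and start sites are RefSeq's (GRCm38.p6). Both span ends replaced the start site for the 4 zinc finger genes without a promoter entry. Sequences were aligned with Biopython 1.88, and counts made with Python 3.11.15, pandas 2.3.3, NumPy 2.4.6, SciPy 1.17.1 and Matplotlib 3.10.9. Overlap, merging and interval code was tested on simulated data. Members and lists were chosen with earlier results of these data known.

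Named were zinc finger genes open in 1 list only, the 10 with the strongest gene-end region in the young list, other genes with a gene-end region among the 10 strongest, the 10 strongest regions, the 5 strongest list-only and 5 widest regions per list, and the longest gap of each list. Runs and printed sequences were added after the values were seen. No genome sequence was used, so the sequence of the regions themselves was not analysed here. Alternatives covered the threshold, the merging, the overlap that counts as shared, the bounds, the flanks and the gene-end window.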

Additional observations from a re-analysis of the deposited data

How the results depend on the processing

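Over 14 settings and 70 alternative values, 33 stayed within the interval of the value reported (or, for counts of genes, within 1.5 times it) and 37 moved. The aged-only share of the stretch stayed above that of all aged regions in every setting run. Since the stretch was chosen for this share in the same lists, that is a description and not support. With a −log10 q of at least 5, the aged median fold was 3.17, and 2 zinc finger genes were open in the aged list only. With the 58642 strongest regions of each list, the stretch held 18.6% of aged and 11.7% of young regions of the 9 Mb, with median folds of 7.35 and 15.3. The aged-only share was then 39.7% (23 of 58 regions) against 11.1% of all, the young-only share 5.88% against 15.4% of all, and 2 zinc finger genes were open in both lists, 0 in the aged list only and 0 in the young list only. With regions of 3-fold or more, the stretch held 23.4% and 13.2%, the median folds were 4.90 and 6.85, the aged-only share was 47.6% against 6.80% of all, and 0 genes were open in the aged list only. With unmerged rows, the list-only shares were 38.3% against 6.41% of all (aged) and 7.58% against 16.3% (young). With the bounds at the first and last zinc finger gene, the stretch held 26.3% and 11.6%, with median folds of 2.67 and 2.64 and list-only shares of 72.9% against 10.7% of all (aged) and 2.67% against 28.2% (young). With flanks of 1.5 Mb the stretch held 62.1% and 45.8%, and with flanks of 6 Mb 18.9% and 10.7%, since the length compared differs. With a reciprocal overlap of 50%, the list-only shares were 74.0% against 33.9% of all (aged) and 56.5% against 41.2% (young). With summits within 100 bp they were 68.8% against 28.2% (aged) and 47.8% against 36.0% (young). Under these stricter definitions the young-only share of the stretch was thus above that of the young list, where it was below it with 1 bp, and it was below it in the other settings. If a region of the other list within 1 kb counted as shared, the aged-only share was 44.6% against 5.74% of all. With gene-end windows of 2.5 kb, 3 zinc finger genes were open in the aged list only. With both ends of every gene span, an alternative chosen after seeing the data, it was 2 in the aged list only and 0 in the young list only. The cause of these shifts was not tested.

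No paired analysis was possible because each age has 1 list and no values per library. For the same reason no value here has a replicate. The depth is unknown, so a region missing from a list cannot be told from one under its threshold, and the weakest list-only regions lie at that threshold. Folds of different lists were not compared.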
